A study of Homo sapiens with 6 samples.

Results

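The genes described here are 10 genes of the NF-κB system: the subunits NFKB1, NFKB2, RELA and RELB, the inhibitors NFKBIA and NFKBIE, the feedback genes TNFAIP3 and BIRC3, and the chemokines CXCL8 and CXCL2. They were found by matching NCBI gene IDs to symbols, and all 10 were among the 28395 gene IDs counted and the 13767 genes tested. HCT116 is an established human colorectal cancer cell line. It was grown for 24 h in medium with 50 nM TR-107, a small-molecule agonist of the mitochondrial matrix protease ClpP (3 libraries), or with 0.1% DMSO, the vehicle (3 libraries). The line carried no other stated allele or agent in either group. Poly(A)-selected RNA was sequenced as read pairs, and the design text speaks of biological replicates but does not describe separate cultures. The p-values therefore measure the library-to-library spread, which may be technical.

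NF-κB factors are dimers of Rel family proteins. In the canonical branch, dimers of RELA with the NFKB1 product p50 are held in the cytoplasm by IκB proteins such as the NFKBIA and NFKBIE products, until the IκB kinase marks these for degradation. In the non-canonical branch, the NFKB2 product p100 is processed to p52, which pairs with RELB. Many, though not all, of the subunit, inhibitor, feedback and chemokine genes of this set are also known target genes of the pathway. In intestinal epithelium CXCL8 and CXCL2 draw neutrophils. The RNA counts measured none of the protein processing, degradation or nuclear entry.

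Sequence just upstream of the starts is shown first, since κB sites in these stretches are the feature that the target genes are known to share. The 250 bases before each RefSeq start (GRCh38.p14) were searched on both strands for the 10-base NF-κB consensus and for the 9-base forms GGAATTTCC and GGACTTTCC, which can lie inside a consensus match. RefSeq windows were matched for 8 of the 10 genes (12 windows), and RELB and NFKBIE had no window. A match lay in at least 1 window of 7 of the 8, the exception being RELA. Of all 35116 windows, 5.21% held the consensus, 0.413% held GGAATTTCC and 0.333% held GGACTTTCC. The genes were picked as NF-κB genes, so these matches describe them and are no test. The stretches below are 30 bases in the direction of the gene, with matched bases in capitals. They are a selection: further matched stretches of BIRC3, NFKB2 and NFKBIA, including the GGACTTTCC match of NFKBIA, are not printed.

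CXCL8, chr4:73740467-73740496 (+): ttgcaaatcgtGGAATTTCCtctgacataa
CXCL2, chr4:74099254-74099283 (-): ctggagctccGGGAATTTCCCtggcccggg
CXCL1, chr4:73869304-73869333 (+): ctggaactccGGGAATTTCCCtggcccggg
CXCL3, chr4:74038749-74038778 (-): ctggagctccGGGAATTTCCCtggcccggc
NFKBIA, chr14:35404811-35404840 (-): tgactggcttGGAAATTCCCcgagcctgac
TNFAIP3, chr6:137867188-137867217 (+): ctttGGAAAGTCCCgtGGAAATCCCCgggc
BIRC3, chr11:102317275-102317304 (+): tttgggtcatGGAAATCCCCgagtgggttt
NFKB1, chr4:102501300-102501329 (+): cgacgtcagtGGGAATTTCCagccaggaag
NFKB2, chr10:102394461-102394490 (+): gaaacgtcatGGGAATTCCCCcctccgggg
NFKB2, chr10:102395674-102395703 (+): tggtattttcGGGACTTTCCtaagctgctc

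CXCL1 and CXCL3 are shown because they are the other chemokine genes of the CXCL8 and CXCL2 cluster that had reads. CXCL2 shared a run of 23 bases across its match with both of them, ctccGGGAATTTCCCtggcccgg. The whole upstream stretches of the pair of chemokines that changed most are given next, with the same capitals.

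CXCL8, chr4:73740319-73740568 (+): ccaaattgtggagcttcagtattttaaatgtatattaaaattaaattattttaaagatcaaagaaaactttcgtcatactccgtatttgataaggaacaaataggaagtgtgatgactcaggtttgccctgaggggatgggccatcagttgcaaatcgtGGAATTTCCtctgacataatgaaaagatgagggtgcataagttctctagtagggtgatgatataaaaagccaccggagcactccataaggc
CXCL2, chr4:74099196-74099445 (-): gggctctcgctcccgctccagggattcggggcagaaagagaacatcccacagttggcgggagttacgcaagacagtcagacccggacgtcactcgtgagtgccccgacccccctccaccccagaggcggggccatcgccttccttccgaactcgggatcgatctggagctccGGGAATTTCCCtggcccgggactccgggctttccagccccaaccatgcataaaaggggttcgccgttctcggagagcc

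In CXCL8 the match lay 91 to 83 bases upstream of the start, and in CXCL2 the first consensus match lay 78 to 69 bases upstream. TNFAIP3 held consensus matches 67 to 58 and 55 to 46 bases upstream, and NFKB2 held matches in 2 of its 3 windows. Windows are set by transcript starts, and those shown for TNFAIP3 and NFKB2 lie inside the outermost bounds of the gene. A match is a run of letters and was not tested as a binding site.

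The libraries held 17264039 to 22243758 counts after TR-107 and 18344471 to 23708135 in DMSO. All 6 epithelial markers had reads in both groups, with KRT8 at 2694 and 2646 CPM and EPCAM at 396 and 381 CPM (means in TR-107 and DMSO), neither of them called. CDH1 (1.73-fold), KRT18 (1.21-fold) and KRT19 (1.19-fold) were called higher after TR-107. CDX2, an intestinal transcription factor, was at 17.7 ± 1.01 CPM after TR-107 and 24.4 ± 4.22 CPM in DMSO (SD, n = 3) and was called lower (edgeR adjusted p = 0.000518). CPM are read counts scaled to a common library size, corrected by TMM, a trimmed mean that sets libraries on 1 scale. Among markers of other cell types, PTPRC and CD3E were listed at 0 in all libraries, and COL1A1 alone was high enough to test. COL1A1 was at 17.2 ± 1.01 CPM after TR-107 and 14.3 ± 1.74 CPM in DMSO (SD, n = 3) and was not called. Without COL1A1, the summed level of these markers was 0.350 to 0.792 CPM after TR-107 and 0.290 to 0.803 CPM in DMSO. These are bulk libraries, in which fewer cells expressing a gene and less RNA per cell cannot be told apart.

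After TR-107, NFKB2 and RELB, the inhibitor NFKBIA, the feedback gene BIRC3 and both chemokines were higher than in DMSO, and the inhibitor NFKBIE was lower. NFKB1, RELA and TNFAIP3 did not pass the test. The test was edgeR's quasi-likelihood test, with calls at 0.05 after Benjamini-Hochberg adjustment over all genes tested. Thus 6 of the 10 were called higher and 1 lower, where 29.2% of all tested genes were called higher, 28.6% lower and 57.8% in either direction. Calls with at least a 2-fold rise were made for 3 of the 10 (BIRC3, CXCL8 and CXCL2), against 6.55% of all genes, and with at least a 2-fold fall for 0 of the 10, against 3.71%. CXCL8 and CXCL2 passed the filter on low counts only through the TR-107 libraries, where they were high. Their part in the counts and the median of this paragraph follows in part from that filter and is no test. The groups did not overlap in CPM for 8 of the 10, against 62.4% of all genes. The median log2 fold change (TR-107 over DMSO) was 0.56 over the 10 and 0.01 over all genes tested.

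**Figure D1:**
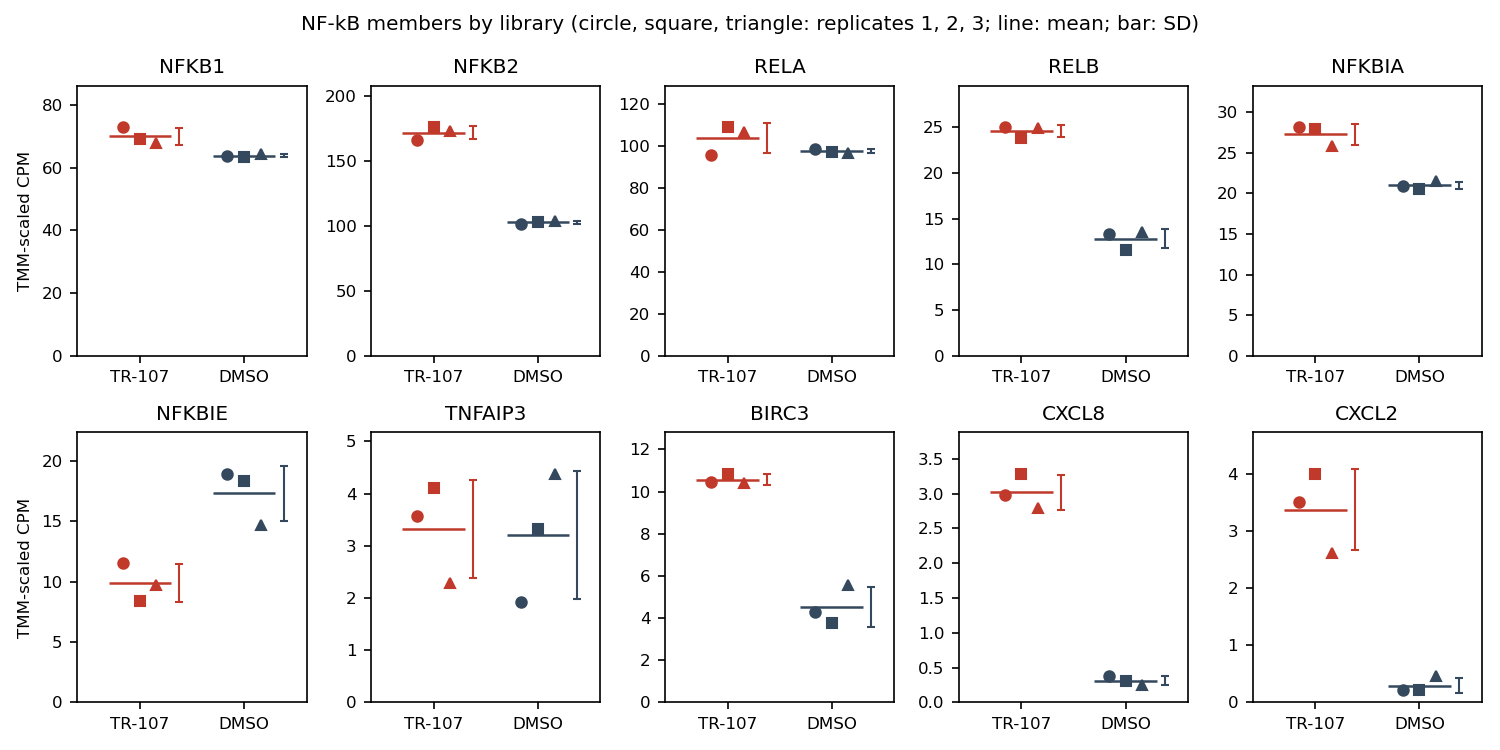
TMM-scaled CPM (y axis, from 0, scaled per gene) of the 10 genes in each TR-107 library and each DMSO library (circle, square and triangle for replicates 1, 2 and 3; line for the mean, bar for the SD, n = 3). NFKB2 lay at 166.3 to 176.2 CPM after TR-107 and 101.5 to 104 CPM in DMSO, while the TNFAIP3 points of the groups were mixed.

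NFKB1 (gene ID 4790, GRCh38 chromosome 4, 102501359 to 102617302) encodes p105, the precursor of p50. It had 72.9, 69.1 and 67.7 CPM in TR-107 replicates 1, 2 and 3, against 63.8, 63.3 and 64.4 CPM in DMSO replicates 1, 2 and 3. All 3 TR-107 libraries lay above the DMSO libraries, by a small margin. The log2 fold change was 0.13 ± 0.06 (SE), with a 95% interval of 0.0043 to 0.26, and the edgeR adjusted p was 0.0713, so NFKB1 was not called.

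RELA (gene ID 5970, chromosome 11, 65653601 to 65663857) encodes p65, the main transactivating subunit. It had 95.9, 109.1 and 106.8 CPM after TR-107, against 98.7, 97.2 and 96.8 CPM in DMSO. TR-107 replicate 1 lay below all DMSO libraries and the other TR-107 libraries above them, so the groups overlapped. The log2 fold change was 0.09 (95% interval -0.02 to 0.20; edgeR adjusted p = 0.15). Without TR-107 replicate 1 it was 0.15 and passed (edgeR adjusted p = 0.0273), within a range of 0.0273 to 0.681 over all alternatives.

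NFKB2 (gene ID 4791, chromosome 10, 102394110 to 102402529) had 166.3, 176.2 and 172.9 CPM after TR-107, against 101.5, 102.9 and 104 CPM in DMSO. The groups stood well apart. NFKB2 was 1.67-fold higher (95% interval 1.56 to 1.79; edgeR adjusted p = 3.19e-17).

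RELB (gene ID 5971, chromosome 19, 45001464 to 45038192), which encodes the partner of p52, had 25, 23.8 and 24.9 CPM after TR-107, against 13.3, 11.6 and 13.5 CPM in DMSO. The lowest TR-107 library lay far above the highest DMSO library. RELB was 1.92-fold higher (95% interval 1.64 to 2.25; edgeR adjusted p = 1.73e-09).

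Ratios of raw counts within a library do not depend on the scaling between libraries. NFKB2 had 2.28, 2.55 and 2.55 counts per count of NFKB1 in TR-107 replicates 1, 2 and 3, against 1.59, 1.63 and 1.61 in DMSO. RELB had 0.261, 0.218 and 0.233 counts per count of RELA after TR-107, against 0.135, 0.120 and 0.140 in DMSO. Both ratios were higher in every TR-107 library than in every DMSO library. These ratios were chosen after the values were seen and are given without a test.

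NFKBIA (gene ID 4792, chromosome 14, 35401513 to 35404749) encodes IκBα, the classical feedback inhibitor, which is resynthesised after each wave of NF-κB activity. It had 28.2, 27.9 and 25.8 CPM after TR-107, against 20.9, 20.5 and 21.5 CPM in DMSO. The groups did not overlap. NFKBIA was 1.30-fold higher (95% interval 1.13 to 1.49; edgeR adjusted p = 0.000962).

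NFKBIE (gene ID 4794, chromosome 6, 44258166 to 44265551) encodes IκBε, another cytoplasmic inhibitor of RELA and REL dimers. It had 11.5, 8.44 and 9.74 CPM after TR-107, against 18.9, 18.3 and 14.7 CPM in DMSO. All 3 TR-107 libraries lay below the lowest DMSO library, replicate 3. NFKBIE was 1.75-fold lower, with -0.81 ± 0.14 (SE) on the log2 scale (edgeR adjusted p = 3.94e-06). The inhibitors therefore moved in opposite directions, with 0.409, 0.303 and 0.377 NFKBIE counts per NFKBIA count after TR-107, against 0.905, 0.892 and 0.683 in DMSO.

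TNFAIP3 (gene ID 7128, chromosome 6, 137866349 to 137883312) encodes A20, a ubiquitin-editing enzyme that shuts off signalling from tumour necrosis factor and Toll-like receptors. Its raw counts were 61, 75 and 49 after TR-107, against 36, 76 and 106 in DMSO. These gave 3.56, 4.11 and 2.28 CPM after TR-107, against 1.93, 3.32 and 4.38 CPM in DMSO. The spread within each group exceeded the difference between their means. The fold was 1.02 (95% interval 0.671 to 1.56; edgeR adjusted p = 0.942), so no difference was detected, and that interval bounds its size. Its direction turned to a fall with library size alone (log2 fold change -0.03) and without TR-107 replicate 1 (-0.02), TR-107 replicate 2 (-0.15) or DMSO replicate 1 (-0.23), none of which passed.

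BIRC3 (gene ID 330, chromosome 11, 102317484 to 102339403) encodes cIAP2, a ubiquitin ligase of tumour necrosis factor receptor complexes. It had 10.5, 10.9 and 10.4 CPM after TR-107, against 4.28, 3.76 and 5.58 CPM in DMSO. The TR-107 libraries lay close together and far above DMSO. BIRC3 was 2.32-fold higher (95% interval 1.79 to 2.997; edgeR adjusted p = 2.7e-07). Its neighbour and paralog BIRC2, which encodes cIAP1, was 1.55-fold higher, and the transcripts of BIRC3 shared 0.144% of their 50-base words with those of BIRC2.

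**Figure D2:**
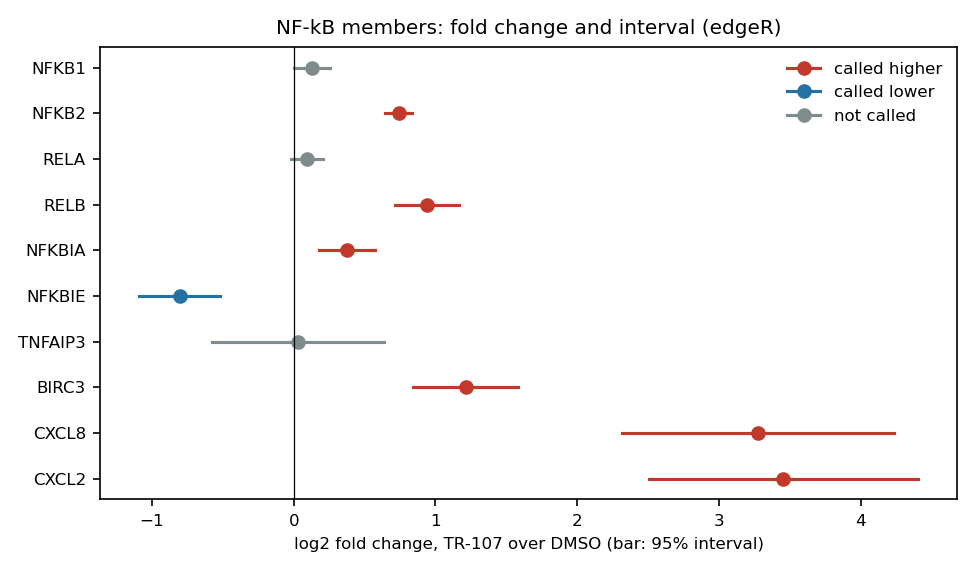
Log2 fold change (TR-107 over DMSO, x axis) of the 10 genes from edgeR, with bars for the 95% interval and colours for the call. CXCL8 and CXCL2 stand at 3.28 and 3.46 with the widest intervals among the called genes, and NFKBIE at -0.81 is the gene called lower.

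CXCL8 (gene ID 3576, chromosome 4, 73740569 to 73743716) encodes interleukin 8. It had 51, 60 and 60 raw counts after TR-107, against 7, 7 and 6 in DMSO. These gave 2.98, 3.29 and 2.80 CPM after TR-107, against 0.375, 0.306 and 0.248 CPM in DMSO. The level was low in both groups, but no TR-107 library came near a DMSO library. CXCL8 was 9.69-fold higher (95% interval 4.98 to 18.9; edgeR adjusted p = 1.25e-07).

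CXCL2 (gene ID 2920, chromosome 4, 74097040 to 74099195) encodes a chemokine of the same receptor class. It had 60, 73 and 56 raw counts after TR-107, against 4, 5 and 11 in DMSO. These gave 3.50, 4 and 2.61 CPM after TR-107, against 0.214, 0.219 and 0.455 CPM in DMSO. DMSO replicate 3 was the highest of its group and still far below TR-107. CXCL2 was 10.97-fold higher (95% interval 5.68 to 21.2; edgeR adjusted p = 3.1e-08). By log2 fold change CXCL2 ranked 40 and CXCL8 47 from the top among the 13767 genes tested. Both were among these only through their TR-107 libraries, so the ranks are descriptions.

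The chemokine cluster on chromosome 4 that holds both, between 73 and 75 Mb, has 9 protein-coding genes of this family. The other 2 that could be tested, CXCL1 and CXCL3, were also called higher. On their DMSO counts alone neither would have passed the filter on low counts, so both were tested through the TR-107 libraries. The rise of all tested genes of the cluster is therefore a description and no test. CXCL1 had 46, 31 and 40 raw counts after TR-107, against 5, 18 and 23 in DMSO, and was 3.03-fold higher (edgeR adjusted p = 0.00473). CXCL3 had 27, 41 and 65 raw counts after TR-107, against 8, 6 and 24 in DMSO, and was 4.004-fold higher (edgeR adjusted p = 0.000626), a log2 fold change of 2.002 that became 2.72 without DMSO replicate 3. The remaining 5 (CXCL6, PF4V1, PF4, PPBP and CXCL5) were listed at 0 in all 6 libraries. CXCL2, CXCL1 and CXCL3 are close copies: 12.5% of the 50-base words of CXCL2 transcripts occur in CXCL1 or CXCL3 transcripts, and 0% of those of CXCL8 occur in any of the 3. Reads from the shared stretches may be split between copies or lost, so the counts of CXCL1, CXCL2 and CXCL3 are less certain than those of CXCL8.

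**Figure D3:**
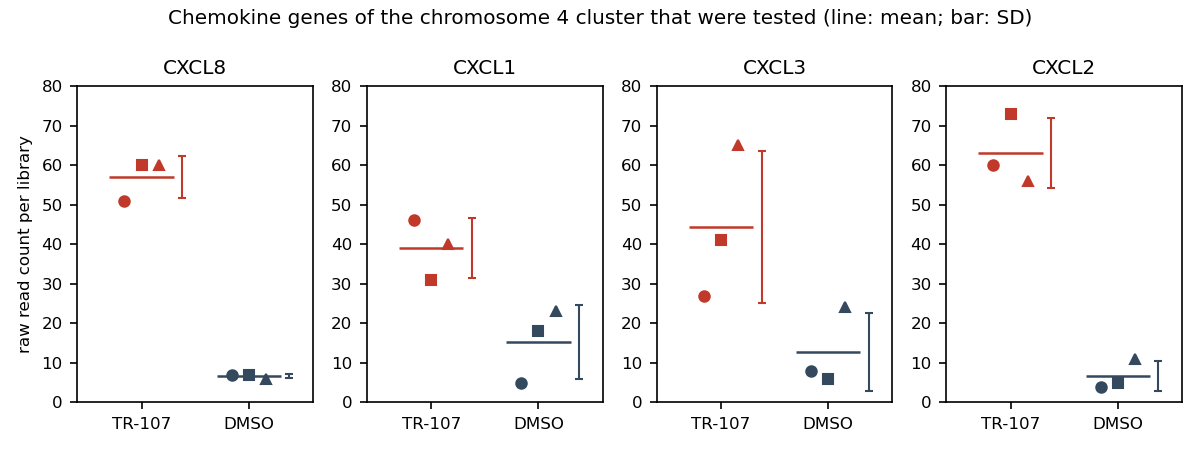
Raw read counts per library (y axis, from 0) of the 4 tested chemokine genes of the chromosome 4 cluster, in genome order, in TR-107 and DMSO libraries (circle, square and triangle for replicates 1, 2 and 3; line for the mean, bar for the SD, n = 3). CXCL8 had 51 to 60 counts after TR-107 and 6 to 7 in DMSO, while CXCL1 and CXCL3 came closer, with 23 and 24 counts in DMSO replicate 3.

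To compare levels between genes, mean CPM was divided by the length of all annotated exons of the gene in kb (GENCODE v29). After TR-107 the order of levels was NFKB2 (46.6 ± 1.36 CPM per kb, SD, n = 3), RELA (30.7 ± 2.09), NFKBIA (14.4 ± 0.673), NFKB1 (12.7 ± 0.481), RELB (10.7 ± 0.293), NFKBIE (3.83 ± 0.597), CXCL2 (2.77 ± 0.579), BIRC3 (1.53 ± 0.0358), CXCL8 (1.51 ± 0.124) and TNFAIP3 (0.70 ± 0.198). In DMSO the order was RELA (28.8 ± 0.291 CPM per kb, SD, n = 3), NFKB2 (27.9 ± 0.346), NFKB1 (11.6 ± 0.105), NFKBIA (11.1 ± 0.257), NFKBIE (6.71 ± 0.891), RELB (5.57 ± 0.448), TNFAIP3 (0.678 ± 0.260), BIRC3 (0.657 ± 0.136), CXCL2 (0.243 ± 0.113) and CXCL8 (0.155 ± 0.0316). Neighbours whose libraries overlapped were NFKBIE with CXCL2 and BIRC3 with CXCL8 after TR-107, and NFKBIE with RELB, TNFAIP3 with BIRC3, and CXCL2 with CXCL8 in DMSO. NFKB2 thus stood above RELA after TR-107, whereas in DMSO RELA stood slightly above NFKB2, and TNFAIP3 held the last place after TR-107. Exon lengths come from an annotation that may differ from the one used for counting, so close neighbours in these orders are uncertain.

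Around the 10 genes, 131 further genes of the pathway were sorted into 6 lists by role. Of these 97 could be tested, and 41 (12 of them at least 2-fold) were called higher and 21 (1 of them at least 2-fold, MYD88) lower. Over all genes tested, 29.2% were called higher (6.55% at least 2-fold) and 28.6% lower (3.71% at least 2-fold). The median log2 fold change was 0.17 over the 97 and 0.01 over all genes. CXCL1, CXCL3 and PTGS2, all called at least 2-fold higher, and IL23A, not called, passed the filter on low counts only through the TR-107 libraries. These totals and the median over the 97 therefore follow in part from that filter and are no test. Each rise or fall named below, apart from that of CCL20, passed edgeR's test over all genes, with adjusted p from 1.85e-38 (RBCK1) to 0.0458 (OTULIN).

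Among 24 tested receptors, ligands and adaptors, 5 were higher and 7 lower (29.2% and 28.6% of all genes), with a median log2 fold change of 0.00. Both shares were near those over all genes or below them. TNFRSF1A, the main tumour necrosis factor receptor, was at 176 ± 5.66 CPM after TR-107 and 85.3 ± 6.76 CPM in DMSO (SD, n = 3), a 2.06-fold rise. TNFRSF12A, the receptor for TWEAK (log2 fold change 0.36), TLR6 (0.98) and IL1RAP, a shared chain of interleukin 1 family receptors (0.97), also rose. MYD88, the adaptor of Toll-like and interleukin 1 receptors, was at 13.5 ± 0.669 CPM after TR-107 and 27.1 ± 1.22 CPM in DMSO (SD, n = 3), a 2.003-fold fall. The adaptors TRAF2 (-0.53) and TRAF5 (-0.93) and the kinase IRAK1 (-0.21) fell as well on the log2 scale.

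The ligand genes TNF, LTA and LTB were listed at 0 in all 6 libraries. They lie on chromosome 6 in a region where the counts as a whole were nearly empty. Of 139 protein-coding genes between 29 and 33 Mb there, 79 (56.8%) were listed at 0 in all libraries and 8 (5.76%) could be tested, against 19.1% at 0 and 65.4% tested elsewhere in the genome. DDX39B, a splicing helicase that cells in general use, was listed at 0, and TUBB, a main β-tubulin, had 1 to 5 counts after TR-107 and 6 to 20 in DMSO. The listed zeros of TNF, LTA and LTB therefore give no level, and the same holds for NFKBIL1, with 1 count in all.

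Of 23 tested kinases and ubiquitin enzymes, 8 were higher and 6 lower, shares near the 29.2% and 28.6% of all genes, with a median log2 fold change of -0.02. RBCK1, a subunit of the linear ubiquitin ligase complex, was at 497 ± 16.2 CPM after TR-107 and 65.7 ± 3.31 CPM in DMSO (SD, n = 3), a 7.56-fold rise (edgeR adjusted p = 1.85e-38). Its partners RNF31 and SHARPIN, added here after their values were seen, were not called (log2 fold changes -0.02 and -0.02). The apoptosis inhibitors XIAP (0.79) and BIRC2 (0.63) and the paracaspase MALT1 (0.66) rose. UBE2N, which builds K63-linked ubiquitin chains (-0.71), the scaffold CARD10 (-0.61), CUL1, a scaffold of the ligase that marks IκB (-0.31), and CHUK, which encodes the kinase IKKα (-0.32), fell on the log2 scale. Exons of UBE2N overlap NUDT4 on the other strand over 2457 bases, and those of MALT1 and CUL1 overlap opposite-strand genes, so their counts are uncertain.

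Of 5 other tested Rel and IκB family genes, 2 rose and 1 fell (29.2% and 28.6% of all genes), and the median on the log2 scale was 0.14. BCL3, a nuclear IκB protein that binds p50 and p52, was 1.64-fold higher, and NFKBIZ, another nuclear IκB protein, was 1.59-fold higher. NFKBIB, which encodes the cytoplasmic inhibitor IκBβ, was 1.45-fold lower. REL (log2 fold change 0.14) and NFKBID (-0.40) did not pass. Of the 11255 exon bases of REL, 5702 overlap AC010733.2 on the same strand, so its count is uncertain. The NFKBIZ call was lost without TR-107 replicate 1 (edgeR adjusted p = 0.0546) or DMSO replicate 3 (0.0704), and with either of these libraries left out 1 gene of the list rose and 2 fell.

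Of 17 tested genes of negative feedback, 10 were higher and 3 lower (29.2% and 28.6% of all genes), with a median log2 fold change of 0.35. ZFP36, which binds AU-rich elements and promotes decay of cytokine mRNAs, was at 118 ± 6.57 CPM after TR-107 and 28.2 ± 3.07 CPM in DMSO (SD, n = 3), a 4.19-fold rise. TAX1BP1 (0.82) and ITCH (0.51), partners of A20, and the deubiquitinase CYLD (0.71) rose on the log2 scale. TNIP2, an A20-binding protein (-0.26), PDLIM2 (-0.24) and the deubiquitinase OTULIN (-0.19) fell. PDLIM2 lost its call without TR-107 replicate 3 or DMSO replicate 2 and with DESeq2, and OTULIN lost it without TR-107 replicate 1 or 2 or DMSO replicate 1 or 3 and with DESeq2. The called IER3 lies in the nearly empty region of chromosome 6, with 40, 38 and 45 counts after TR-107 against 19, 22 and 30 in DMSO.

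Of 24 other chemokine, cytokine and chemokine receptor genes, 8 could be tested, and 4 were higher and 0 lower by edgeR (29.2% and 28.6% of all genes), with a median log2 fold change of 0.65. Besides CXCL1 and CXCL3, these were LIF, a cytokine of the interleukin 6 family, at 125 ± 7.65 CPM after TR-107 and 73.6 ± 8.48 CPM in DMSO (SD, n = 3), and IL32, 1.46-fold higher. LIF overlaps antisense genes, and IL32 lost its call without TR-107 replicate 3 or DMSO replicate 1 or 2 and with library size alone. CXCL1, CXCL3 and IL23A passed the filter on low counts only through the TR-107 libraries. The count of 4 higher and 0 lower and the median of this list follow in part from that filter and are no test. CXCL16 was at 81.4 ± 1.63 CPM after TR-107 and 81.6 ± 3.36 CPM in DMSO (SD, n = 3). It did not pass, nor did IL11 (log2 fold change 0.23), IL23A (1.07) or CSF1 (-0.0041). At an unadjusted p under 0.05 there were 0 lower genes among the 8, and 0 were called lower by DESeq2.

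CCL20, a chemokine for CCR6-bearing cells, was too low for the filter. It had 6, 7 and 4 counts after TR-107 and 0 in all 3 DMSO libraries. Its pooled level after TR-107 was 6.56 times a floor of 3 counts over the DMSO group, with no allowance for the sampling error of its own few counts. With no filter on low counts its edgeR adjusted p was 0.0165. CXCL5, CXCL6, CXCL10, CXCL14, CX3CL1, CCL2 and CCL5 were listed at 0 in all libraries, CXCL11 had 1 count in all and CCL28 had 2. Of the receptors of CXCL8, CXCR1 had 0 to 2 counts in the libraries of either group, and CXCR2 had 3, 15 and 0 counts in TR-107 replicates 1, 2 and 3 and 0 in DMSO.

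Of 20 tested further target genes, 12 were higher and 4 lower (29.2% and 28.6% of all genes), with a median log2 fold change of 0.41. PTGS2, called higher, had 24, 17 and 34 counts after TR-107, against 4, 19 and 11 in DMSO. It passed the filter on low counts only through the TR-107 libraries, so its part in this count and median is no test. LCN2, the iron-binding protein lipocalin 2, was at 74.5 ± 3.09 CPM after TR-107 and 8.47 ± 0.267 CPM in DMSO (SD, n = 3), an 8.79-fold rise. PLAU, the urokinase plasminogen activator, whose exons overlap C10orf55 on the other strand, was 5.28-fold higher. SAT1, which acetylates polyamines, was 2.27-fold and SDC4, a heparan sulfate proteoglycan, 2.23-fold higher. SOD2, the mitochondrial superoxide dismutase (-0.42), the transcription factor EHF (-0.28), PTGES, a prostaglandin E synthase (-0.69), and CD83 (-0.61) fell on the log2 scale.

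**Figure D4:**
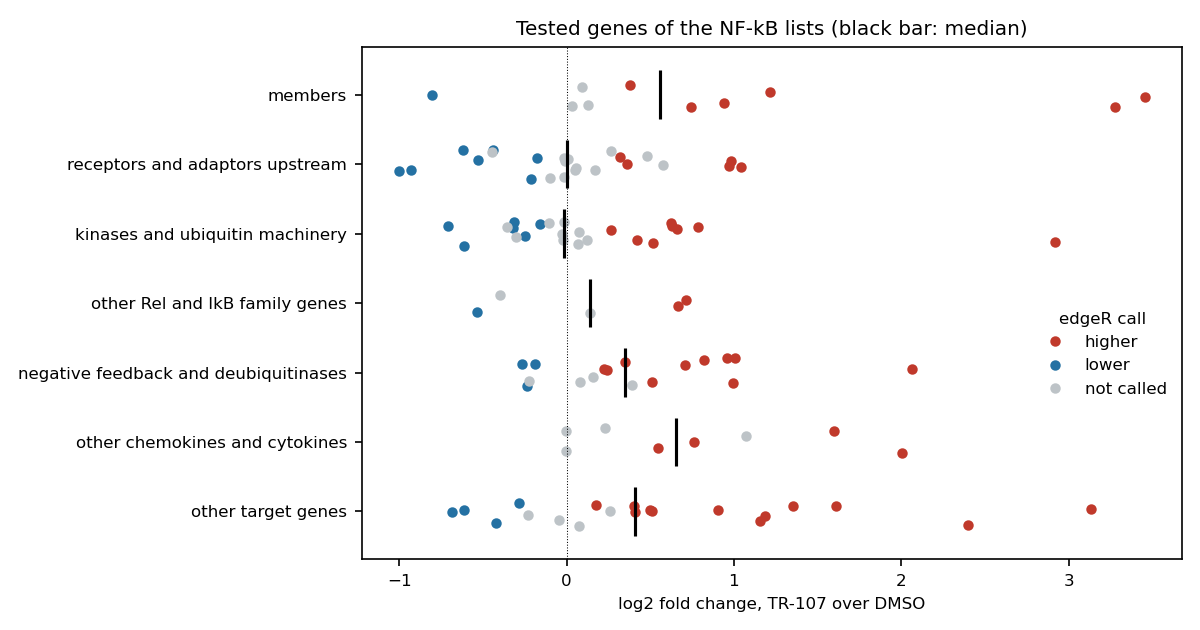
Log2 fold change (TR-107 over DMSO, x axis) of the tested genes in the list of 10 and in the 6 wider lists, with colours for the edgeR call and a black bar for each list's median; the vertical scatter within a list is for display. The medians run from -0.02 for kinases and ubiquitin machinery to 0.65 for other chemokines and cytokines, and RBCK1 at 2.92 stands apart from its list. Some chemokine and cytokine genes were tested only through the TR-107 libraries, so the median of 0.65 is a description.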

How the data were processed

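The authors deposited raw read counts per gene, made with HISAT2 per the file headers and with featureCounts on hg38 per the submitters' processing notes, which also name FastQC and Trimmomatic. Versions, the gene annotation, and strand and multi-mapping settings were not given in the sources used here, so reads of overlapping genes and close copies may be split or lost. Of the gene IDs, 27745 matched a RefSeq symbol (GRCh38.p14) and 650 did not. Groups came from the sample titles.

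Counts were used as deposited, in edgeR 4.0.16 (R 4.3.3), with TMM scaling, filterByExpr, a robust quasi-likelihood fit on the group and Benjamini-Hochberg adjustment over all genes tested. Standard errors and 95% intervals follow from the F statistic. Replicate pairs differed by a chi-square of 3.98 to 6.20 per degree of freedom, so none lay within sampling noise. Alternatives were other scaling factors, other filters, DESeq2 1.42.0, a block for the replicate number, each library left out in turn, and, added after the data were seen, mitochondrially encoded genes left out. Named genes are the 10 members and, from each wider list, up to 4 called genes per direction with the smallest p; others were chosen after their values were seen. The members and lists were chosen with earlier results of these data known. Sequences are from RefSeq, read with Python 3.11.15. Of the markers of other cell types, 1 is not reported here.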

Additional observations from a re-analysis of the deposited data

How the results depend on the processing

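Of 130 values (the 10 genes under 13 alternatives), 125 kept the direction and the side of the threshold. The exceptions were RELA and TNFAIP3. RELA passed without TR-107 replicate 1, and its log2 fold change was 0.057 to 0.15 with 1 library left out. TNFAIP3 was -0.23 to 0.31 with 1 library left out and -0.032 with library size alone, and passed under none. Genes called over all tested numbered 3484 to 4001 higher and 3727 to 4537 lower. Of the wider lists, the other Rel and IκB family had 2 lower genes with library size alone, and 1 to 2 higher and 1 to 2 lower with 1 library left out. Negative feedback had 7 to 10 higher genes over the alternatives, and 1 lower gene with DESeq2. Other chemokines and cytokines had 3 to 6 higher genes and the further target genes 10 to 12. Of 494 values of 38 named list genes, 480 stayed as they were, 14 lost the call and 0 changed direction. The median log2 fold change of all genes was 0.01 with TMM and -0.05 with library size alone. Why these values moved was not tested.

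The groups share replicate numbers, but same-numbered libraries did not deviate together from their group means (correlations -0.03, -0.02 and 0.05), and not every library correlated best with its own number. Deviations from a mean of 3 libraries sum to 0, so these correlations show no sign of pairing but cannot exclude it. With the replicate number as a block, 3976 genes were called higher and 3942 lower. Depth is low for CXCL8, CXCL2 and TNFAIP3, with 4 to 106 counts a library.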

Other observations

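RBCK1 lies on chromosome 20 (408299 to 432139), 10740 bases from TRIB3, a stress-response pseudokinase gene. TRIB3 was at 385 ± 11 CPM after TR-107 and 57.7 ± 4.54 CPM in DMSO (SD, n = 3), a 6.67-fold rise beside the 7.56-fold rise of RBCK1. The neighbours within 100 kb rose less: SOX12 was 1.76-fold, NRSN2 2.40-fold, TBC1D20 1.49-fold and CSNK2A1 1.27-fold higher, and all of them passed edgeR's test (adjusted p 4.47e-16 for SOX12, 0.0367 for NRSN2). RBCK1 was looked at here after its value was seen.

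Of the 10794 tested genes with an upstream window, 29.8% were called higher and 29.7% lower. Among the 919 whose window held any of the 3 κB forms, 32.2% were called higher and 28.0% lower. Among the 58 with GGAATTTCC, 39.7% were called higher and 22.4% lower, and among the 50 with GGACTTTCC, 32% and 30%. Genes described above are counted in these shares. CXCL8, CXCL2, CXCL1, CXCL3, NFKBIA and NFKB1 are among the 58, and all of them but NFKB1 were called higher. TNFAIP3, NFKB2 and NFKBIA are among the 50. The shares are therefore not separate from the results above and are descriptions without a test.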
